A study of Rattus norvegicus with 10 samples.

Results

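The aryl hydrocarbon receptor gene (Ahr) and the cytochrome P450 genes Cyp1a1 and Cyp1b1 were followed through all 10 libraries of a rat gastric mucosa series. These 3 genes were taken by Ensembl identifier and chromosome from the 32623 identifiers in the count tables, a rule that uses no measured value. The choice of these genes was nevertheless made with earlier results of these data known. All 3 passed the filter on low counts, as did 16346 identifiers in all. The tissue came from Sprague Dawley rats, a common outbred laboratory strain, whose age and sex the labels do not give. The control group, whose labels name no treatment, held 2 libraries. The other 4 groups also held 2 libraries each and were dosed with non-steroidal anti-inflammatory drugs (NSAIDs, inhibitors of the cyclooxygenases). By mouth, rats received 48 mg/kg of indomethacin, 75 mg/kg of diclofenac or 400 mg/kg of aspirin, and mucosa was collected after 4 h. In the last group indomethacin at 48 mg/kg followed 30 min after honokiol, a lignan of magnolia bark, which was injected into the peritoneum at 40 mg/kg. The time label of that group is 0.5 h, the length of the honokiol lead, and it was read as that lead. Read in this way, it gives no time of collection, so a difference in time cannot be told apart from honokiol. The controls carry no vehicle or injection in their labels, and honokiol without indomethacin was not analysed here. No label states that the paired libraries of a group are separate animals, so p-values measure only the spread between these libraries. Y-chromosome counts, given below, differ so far within the control and indomethacin pairs that neither pair can come from 1 animal.

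The AHR protein is a ligand-activated transcription factor of the basic helix-loop-helix PAS family. It waits in the cytoplasm in a complex with the chaperone HSP90, and on binding a ligand it enters the nucleus, pairs with ARNT and binds xenobiotic response elements, whose core letters are GCGTG. CYP1A1 and CYP1B1 are heme enzymes that oxidise aromatic hydrocarbons, and CYP1A1 messenger RNA is a standard readout of an active receptor. In the gut lining, AHR is known for sensing dietary and microbial indoles, and CYP1A1 for clearing such ligands.

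In the coordinates of the count tables, whose genome build no source used here gives, Ahr (ENSRNOG00000004342) lies on the minus strand of chromosome 6 from 54963990 to 55001464, with 11 exons. Cyp1a1 (ENSRNOG00000019500) lies on the plus strand of chromosome 8 from 62472095 to 62478147, with 7 exons. Cyp1b1 (ENSRNOG00000040287) lies on the minus strand of chromosome 6 from 2307808 to 2316722, with 9 distinct exon coordinates. The exons counted span 5.144, 2.638 and 5.499 kb, in that order. The number of other listed features that overlap each gene on either strand is 0. The files pair no identifier with a gene name. The chromosomes match those of the 3 symbols in RefSeq (assembly GRCr8), which places Cyp1b1 on the plus strand, and coordinates of the 2 sources were not mixed.

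RefSeq promoter sequence was found for 2 of the 3 genes, and the 250 bases before each start on GRCr8 are shown because they can be read for the core of the element that AHR and ARNT bind. Capitals mark GCGTG on either strand, so that a match on the opposite strand reads CACGC.
Cyp1b1, chr6:21094315-21094564, plus strand: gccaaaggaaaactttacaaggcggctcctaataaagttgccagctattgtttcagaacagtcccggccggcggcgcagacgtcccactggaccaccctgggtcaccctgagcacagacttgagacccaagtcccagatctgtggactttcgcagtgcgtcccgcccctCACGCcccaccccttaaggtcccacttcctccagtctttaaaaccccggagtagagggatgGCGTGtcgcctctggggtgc
Ahr, chr6:57998902-57999151, minus strand: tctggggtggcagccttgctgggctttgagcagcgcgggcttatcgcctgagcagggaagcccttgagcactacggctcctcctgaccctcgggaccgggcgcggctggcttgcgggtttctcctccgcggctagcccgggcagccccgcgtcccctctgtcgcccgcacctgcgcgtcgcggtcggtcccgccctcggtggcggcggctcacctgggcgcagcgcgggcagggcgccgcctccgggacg

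The Cyp1b1 window holds 2 matches, one from 81 to 77 bases before the start on the opposite strand and one from 20 to 16 bases before the start on the strand of the gene. The second of these is also part of a match to the longer form TNGCGTG. Among 33469 RefSeq promoter windows of the same length, 25.9% hold at least 1 GCGTG on either strand, 8.12% hold at least 2, and 4.09% hold at least 1 TNGCGTG. The Ahr window, at 75.2% G and C against 59.2% for Cyp1b1, holds 0 matches to either form, as do 74.1% of windows for GCGTG. A match describes letters and not a bound site.

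Sequencing depth ran from 23892226 to 44977459 counts per library, over 19478 to 20722 genes with counts. Mitochondrial features took 31.5% to 36.2% of counts in both controls, indomethacin 1 and both honokiol plus indomethacin libraries, and 21.1% to 23.8% in the other 5. Counts on 7 Y-chromosome features were 2733 to 4438 in control 1, indomethacin 1 and the honokiol pair, and at most 47 in the other 6. Reads from the Y chromosome thus differed within the control pair (3582 and 1 counts) and within the indomethacin pair (4438 and 2 counts). They were also uneven between the controls and the aspirin and diclofenac groups, which had at most 47. The cell type label, epithelial cells, was not checked against markers because the files do not name genes.

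Levels of the 3 genes were far apart. Values are CPM, counts scaled to a common library total with TMM factors, and RPKM, the same values per kilobase of exon, where genes are compared with each other. Per kilobase, Ahr had 2.55 to 4.41 RPKM over the 10 libraries, with a median of 3.42. Cyp1b1 had 0.0243 to 0.831 RPKM with a median of 0.403, and Cyp1a1 had 0.0258 to 0.251 RPKM with a median of 0.0848. Of all genes tested, 57.5% had a lower mean level per kilobase than Ahr, 15.9% than Cyp1b1 and 2.99% than Cyp1a1. The receptor was thus a gene of middling abundance, while both of its target genes were scarce. Cyp1a1 rested on 99 counts and Cyp1b1 on 877 counts over the 10 libraries together, against 6178 for Ahr.

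**Figure D1:**
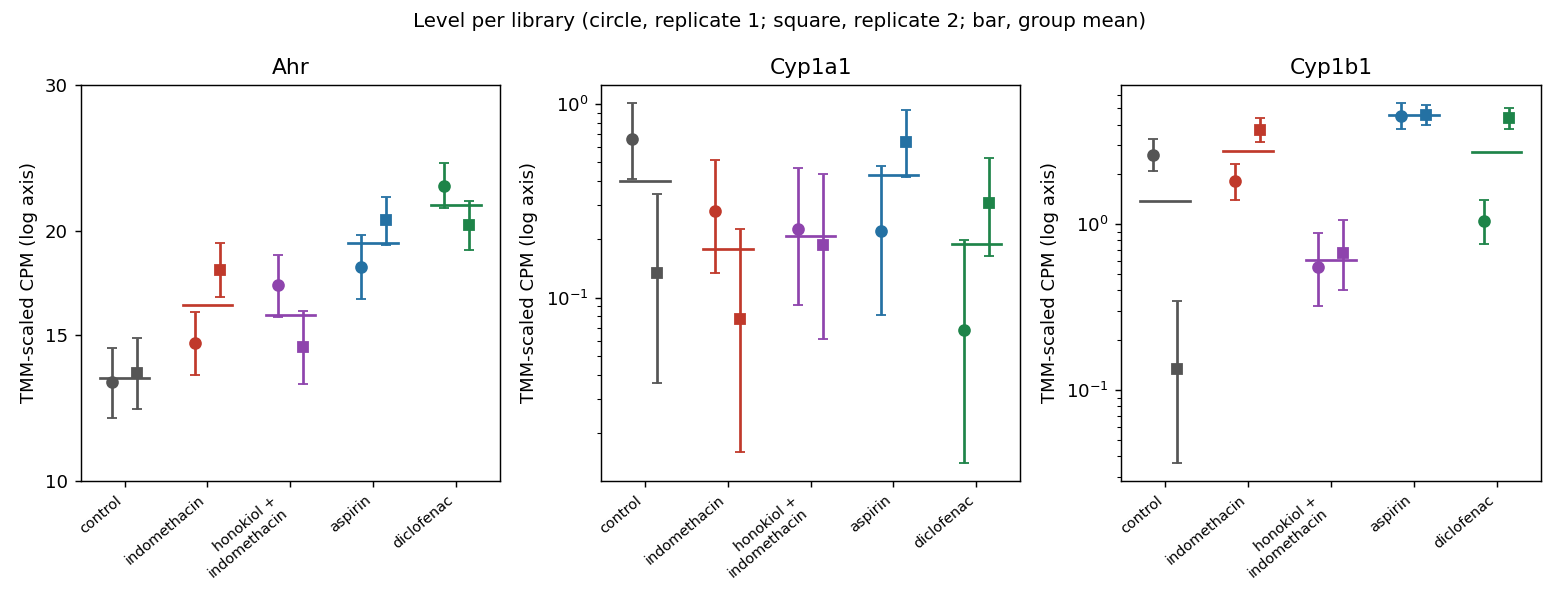
TMM-scaled CPM (log axes) of Ahr, Cyp1a1 and Cyp1b1 in each library by group, with exact 95% Poisson intervals as whiskers and group means of 2 libraries as bars. Ahr lies above both controls in all 8 treated libraries, whereas Cyp1a1 overlaps between groups and Cyp1b1 differs 19.6-fold between the controls.

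Ahr, the receptor, was higher in each drug-treated library than in either control. With diclofenac it was called as higher at an edgeR adjusted p of 0.048, a call lost in 12 of 19 alternatives. The controls had 13.1 and 13.5 CPM. Indomethacin libraries had 14.6 and 18.0 CPM, and those with honokiol before indomethacin 17.2 and 14.5 CPM. Aspirin libraries had 18.1 and 20.6 CPM, and diclofenac libraries 22.7 and 20.3 CPM. All 8 treated libraries thus lay above both controls, a pattern that 6.01% of the genes tested showed. Group by group, both libraries lay above both controls in 20.1% of genes for indomethacin, 18.3% for honokiol plus indomethacin, 30.4% for aspirin and 27% for diclofenac. The groups ran in the order control, honokiol plus indomethacin, indomethacin, aspirin and diclofenac. Among neighbours in this order, honokiol plus indomethacin overlapped with indomethacin, and aspirin with diclofenac. Control did not overlap with honokiol plus indomethacin, nor indomethacin with aspirin (26.2% of genes showed the latter), but neither pair passed the test (edgeR adjusted p = 0.83 and 0.46).

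Mean Ahr was 13.3 CPM ± 0.252 in control and 21.5 CPM ± 1.66 with diclofenac (SD, n = 2 each). On the log2 scale the difference came to 0.69 ± 0.19 (SE, edgeR quasi-likelihood test, adjusted p = 0.048), or 1.62-fold with a 95% interval of 1.21 to 2.16. Ahr was the 1 member of 3 called with diclofenac, where 7.87% of all genes tested were called, 4.76% as higher. The adjusted p lay just under the threshold of 0.05, and the call was lost when any 1 of the control, indomethacin, honokiol plus indomethacin or diclofenac libraries was left out, at log2 fold changes of 0.64 to 0.77 and adjusted p from 0.059 to 0.22. It was also lost with the replicate number as a block (0.69 ± 0.21, adjusted p = 0.077), with a term for Y reads (0.61 ± 0.21, adjusted p = 0.16), in a fit of the 2 groups alone (0.73 ± 0.21, adjusted p = 0.092) and among libraries without Y reads (0.70 ± 0.28, adjusted p = 0.31, SE throughout). DESeq2 gave 0.70 ± 0.24 with an adjusted p of 0.037. The size of the difference was thus held in every alternative run, but its place under the threshold was not.

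**Figure D2:**
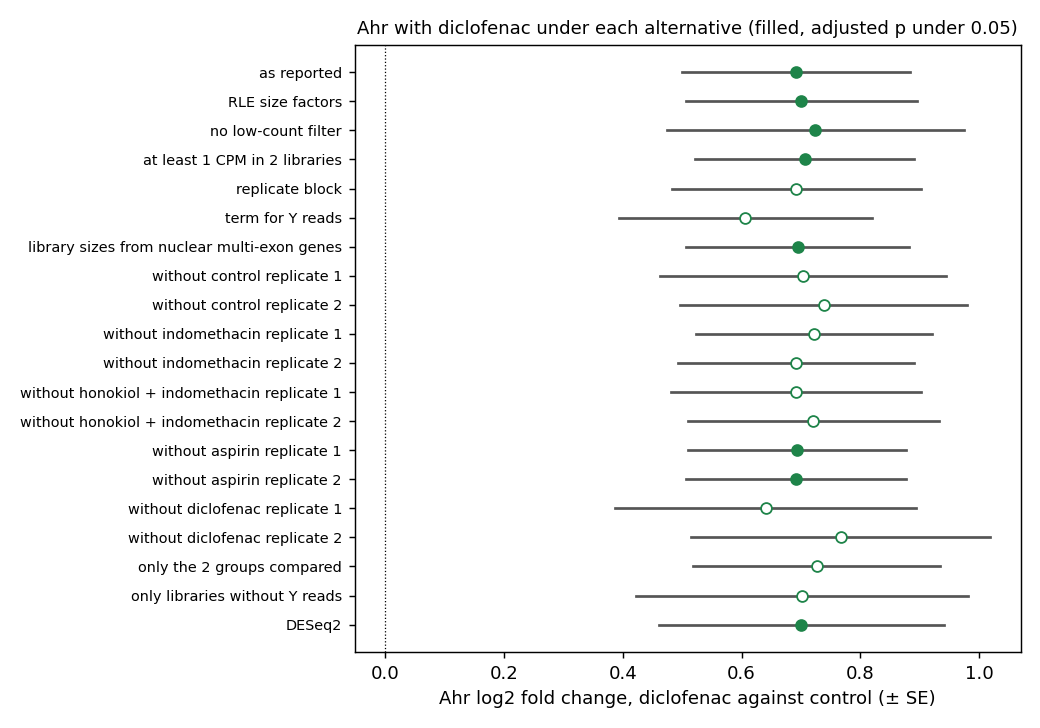
Log2 fold change of Ahr with diclofenac against control (horizontal axis, ± SE) as reported and under each of 19 alternatives, filled where the adjusted p is under 0.05. Estimates stay between 0.61 and 0.77 while 12 of the 19 alternatives fall short of the threshold.

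Aspirin libraries also lay above the controls, at a mean of 19.3 CPM ± 1.76 (SD, n = 2). The log2 fold change of 0.54 ± 0.19 (SE) did not pass the test (edgeR adjusted p = 0.068), and its 95% interval was 1.09-fold to 1.94-fold. In that comparison 0 of the 3 members were called, where 17.8% of all genes tested were called. Indomethacin gave a log2 fold change of 0.29 ± 0.19 for Ahr (SE, edgeR adjusted p = 0.69), a ratio between 0.916 and 1.64 at 95%. With indomethacin 0 of the 3 members were called, where 0.777% of all genes tested were called. Honokiol before indomethacin left Ahr at a mean of 15.8 CPM ± 1.92 against 16.3 CPM ± 2.34 with indomethacin (SD, n = 2 each), or -0.041 ± 0.19 in log2 units (SE, edgeR adjusted p = 0.97). The 95% interval of that ratio was 0.728 to 1.30, and 0.343% of genes were called. Against control the honokiol group had a log2 difference of 0.25 ± 0.19 for Ahr (SE, edgeR adjusted p = 0.83). In that comparison edgeR called 0% of genes and DESeq2 called 14. An unadjusted edgeR p under 0.05 was found for 816 of 16346 genes, about the share that this threshold gives where no gene differs. The 3 drugs were given at different doses. Side by side, diclofenac was above indomethacin by 0.40 ± 0.19 in log2 Ahr and above aspirin by 0.15 ± 0.19 (SE, edgeR adjusted p = 0.43 and 0.85), so neither difference passed the test. Their 95% intervals, as log2 values for indomethacin minus diclofenac and diclofenac minus aspirin, were -0.82 to 0.015 and -0.26 to 0.57. Both indomethacin libraries lay below both diclofenac libraries, as in 23.5% of genes. The pairs of drugs had few calls of any kind, at 0.0184% of genes for indomethacin against diclofenac and likewise against aspirin, and 0% for diclofenac against aspirin.

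**Figure D3:**
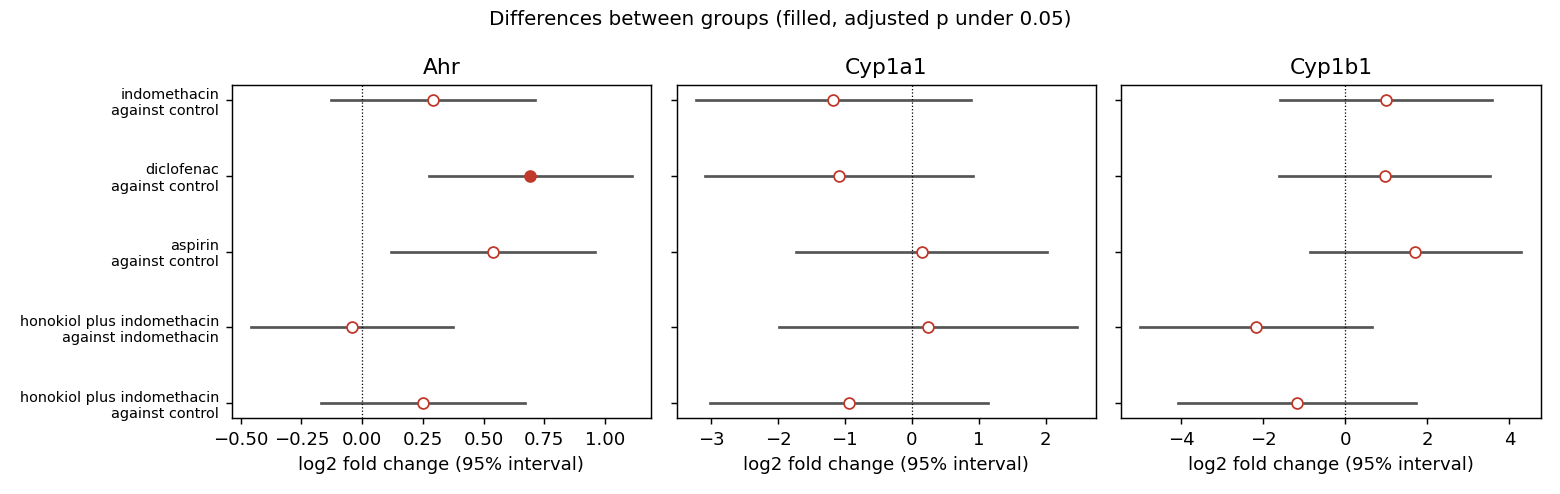
Log2 fold changes (horizontal axes, with 95% intervals) of Ahr, Cyp1a1 and Cyp1b1 in 5 comparisons, filled where the adjusted p is under 0.05. The filled point is Ahr with diclofenac at 0.69, and the intervals of Cyp1a1 and Cyp1b1 all span 0.

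The 5 libraries with the lowest mitochondrial share, at most 23.8%, were those with the highest Ahr, at 18.0 to 22.7 CPM, and the 5 with 31.5% or more had 13.1 to 17.2 CPM. With library sizes taken from nuclear genes of more than 1 exon, which leaves mitochondrial features out, Ahr differed by 0.69 ± 0.19 between diclofenac and control (SE, edgeR adjusted p = 0.045). This alternative changes the scaling only, and whether the Ahr level depends on what the mitochondrial share reflects was not tested. The count tables of aspirin and diclofenac, unlike the others, ended in an additional empty line, and any processing step shared by those 4 libraries cannot be told apart from the drugs. In bulk tissue, a change in the share of cells that express a gene and a change in its RNA per cell cannot be told apart.

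Cyp1a1, the classical AHR target, was close to the limit of detection in each group and no rise was detected. The controls had 21 and 4 counts, indomethacin 10 and 3, and honokiol plus indomethacin 7 and 5. Aspirin had 6 and 27 counts and diclofenac 3 and 13. The CPM values were 0.663 and 0.134 in control, 0.279 and 0.0771 for indomethacin, 0.227 and 0.187 after honokiol and indomethacin, 0.221 and 0.639 for aspirin, and 0.0681 and 0.309 for diclofenac. The highest library was thus a control, 0 of the 8 treated libraries exceeded it, 2 lay below both controls, and every treated group overlapped with the controls. Indomethacin, diclofenac, honokiol plus indomethacin, control and aspirin was the order of the group means, and each neighbour in it overlapped with the next.

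Against control, log2 Cyp1a1 differed by -1.17 ± 0.94 after indomethacin, by -1.08 ± 0.92 after diclofenac and by 0.15 ± 0.86 after aspirin (SE, edgeR adjusted p = 0.75, 0.48 and 0.92). The upper 95% limits of the fold over control were 1.84 for indomethacin, 1.89 for diclofenac and 4.07 for aspirin. For honokiol plus indomethacin the log2 difference was -0.94 ± 0.95 against control and 0.24 ± 1.02 against indomethacin (SE, edgeR adjusted p = 0.85 and 0.97), and the upper limit over control was 2.21-fold. These limits and the signs depended on control replicate 1: without it the log2 fold change was 0.40 ± 1.25 with indomethacin, 0.51 ± 1.23 with diclofenac and 0.63 ± 1.26 with honokiol plus indomethacin (SE), with edgeR adjusted p of 0.95, 0.88 and 0.98. The diclofenac value also turned, to 0.34 ± 0.96, with both controls kept and a term for Y reads (SE, edgeR adjusted p = 0.89), and to 0.51 ± 1.28 among libraries without Y reads (SE, edgeR adjusted p = 0.91). For aspirin the sign rested on 2 libraries, since it was -0.54 without control replicate 2 and -0.86 without aspirin replicate 2 (edgeR adjusted p = 0.70 and 0.63).

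Intervals from the pooled counts cover counting error alone and leave out the spread between libraries. Indomethacin had 13 Cyp1a1 counts against 25 in control, a depth-scaled ratio of 0.428 (exact 95% Poisson interval 0.201 to 0.870). Diclofenac had 16, a ratio of 0.458 (0.228 to 0.892), and aspirin 33, a ratio of 1.17 (0.676 to 2.05). Control libraries differed from each other by 4.96-fold in Cyp1a1, a wider gap than that between any drug group and control. A 7-exon feature 13794 bases upstream of Cyp1a1 on the opposite strand, which the files do not name, had 1 count in control 2 and 0 in the other 9 libraries.

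Cyp1b1, the other CYP1 target, varied widely within groups, and 0 of its group differences passed the test with the low-count filter and all 10 libraries, while 3 passed without that filter. The controls had 83 and 4 counts, which is 2.62 and 0.134 CPM. With indomethacin it had 1.81 and 3.70 CPM, and with honokiol before indomethacin 0.550 and 0.674 CPM. With aspirin it had 4.53 and 4.57 CPM, and with diclofenac 1.04 and 4.38 CPM. Both aspirin libraries and 1 library each of indomethacin and diclofenac lay above both controls, and none of the 8 treated libraries lay below both. The order of the means was honokiol plus indomethacin, control, diclofenac, indomethacin and aspirin, and of these neighbours only indomethacin and aspirin did not overlap (as in 26.2% of genes), a pair that did not pass the test (edgeR adjusted p = 0.71).

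The controls differed in Cyp1b1 by 19.6-fold in CPM. On a log2 scale with a prior count of 2 the difference was 3.81, and among 2011 genes within 0.5 log2 units of its mean level 4 had a larger one, with a median of 0.36. In the diclofenac pair the difference was 2.01, and 23 of the 2011 were larger. In the aspirin pair it was 0.013, where 1971 of the 2011 had a larger difference. The replicates of Ahr, in contrast, differed by 0.038 between the controls and by at most 0.29 in any group.

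**Figure D4:**
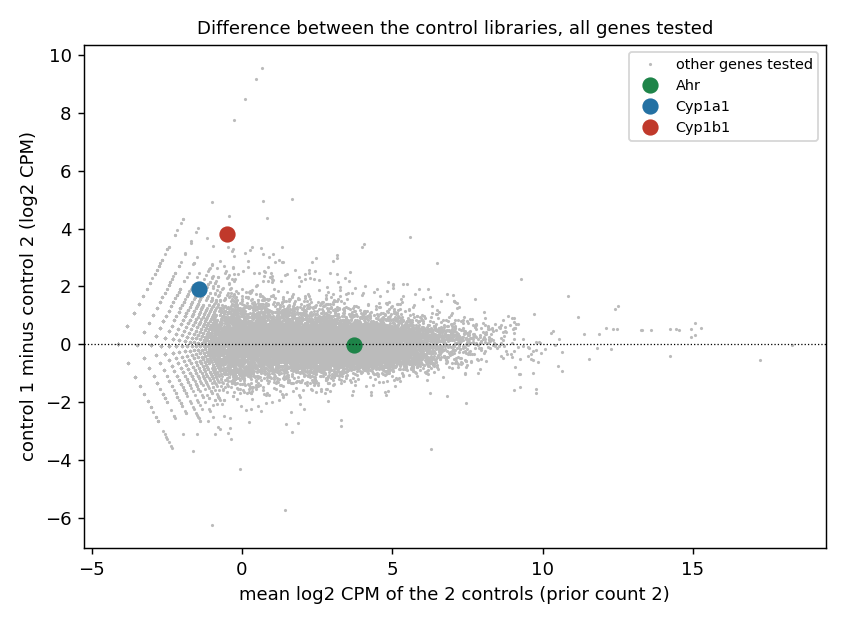
Difference between control 1 and control 2 (vertical axis, log2 CPM) against their mean for all 16346 genes tested, with the 3 members marked. Cyp1b1 lies at 3.81, at the upper margin of genes of its level, and Ahr lies close to 0.

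With aspirin both Cyp1b1 libraries were above both controls, as were 30.4% of the genes tested, which on the log2 scale was a difference of 1.71 ± 1.08 (SE, edgeR adjusted p = 0.29). The means were 4.55 CPM ± 0.0296 with aspirin and 1.38 CPM ± 1.76 in control (SD, n = 2 each). Indomethacin and diclofenac gave 0.99 ± 1.08 and 0.96 ± 1.08 (SE, edgeR adjusted p = 0.83 and 0.62), with means of 2.76 CPM ± 1.33 and 2.71 CPM ± 2.36 (SD, n = 2 each). With no filter on low counts 2 of these passed, aspirin at 1.73 ± 0.35 and diclofenac at 0.99 ± 0.35 (SE, edgeR adjusted p = 2.7e-05 and 0.044). The estimates hardly moved, but the SE fell from 1.08 to 0.35 although the controls differed by 19.6-fold. That fit also called more genes, with diclofenac 2650 of 24106 against 1286 of 16346 with the filter. The 95% intervals of the fold over control, with the filter, were 0.333 to 11.9 with indomethacin, 0.328 to 11.6 with diclofenac and 0.547 to 19.6 with aspirin. Control replicate 2, with 4 counts, weighed on each value: without it the log2 fold change was 0.091 with indomethacin, 0.074 with diclofenac and 0.83 with aspirin. Without control replicate 1 these were 4.35, 4.34 and 5.09, and the diclofenac value was -0.41 without diclofenac replicate 2.

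Honokiol before indomethacin coincided with the lowest group mean of Cyp1b1. The mean was 0.612 CPM ± 0.0870 against 2.76 CPM ± 1.33 with indomethacin (SD, n = 2 each), and both libraries lay below both indomethacin libraries, as did 23.6% of the genes tested. The log2 difference was -2.17 ± 1.18 (SE) and did not pass the test (edgeR adjusted p = 0.65), at a ratio of 0.222 with a 95% interval of 0.0315 to 1.57. With only these 2 groups in the fit, the log2 difference of -2.16 ± 0.43 passed (SE, edgeR adjusted p = 0.039). The spread of the control and diclofenac pairs does not enter that fit, and its filter, scaling and estimate of spread were also redone. Which of these made the difference pass was not tested. That fit called 250 genes, against 56 with all 10 libraries. Both honokiol libraries had Y reads (3393 and 2733 counts), whereas the indomethacin pair had 4438 and 2. With no filter on low counts it also passed, as -2.20 ± 0.38 (SE, edgeR adjusted p = 1.4e-06), in a fit that called 699 of 24106 genes. Against control the honokiol group had -1.18 ± 1.22 (SE, edgeR adjusted p = 0.86), and the sign turned to 2.17 when control replicate 1 was left out.

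The 3 genes did not follow one profile over the 10 libraries, which share their depth, scaling and groups. Pearson's r in log2 CPM was 0.45 between Ahr and Cyp1b1, -0.21 between Ahr and Cyp1a1 and 0.40 between Cyp1a1 and Cyp1b1. The highest Ahr library, diclofenac 1, had the lowest Cyp1a1 level and a Cyp1b1 level under that of control 1. That Cyp1a1 level rests on 3 counts, the same number as in indomethacin 2. Both r values of Cyp1a1 rest on 3 to 27 counts per library.

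The features most like each member were taken as the 5 with the highest Pearson's r over the 10 libraries, among genes with a mean log2 CPM of at least 1, and are given by position because the files do not name them. For Ahr these had r of 0.957 to 0.980, and 43 of 11367 candidates exceeded 0.9. The closest is a 10-exon gene on chromosome 3 (175645281 to 175654707), whose mean level went from 6.19 CPM in control to 7.28 and 8.46 in the groups with and without honokiol before indomethacin, 10.4 for aspirin and 12.01 for diclofenac. The next is an 11-exon gene on chromosome 12 (13090172 to 13111873), with 36.6 CPM in control and 59.9 with diclofenac. These features were picked for their likeness to Ahr in these same libraries, so their order over the groups is a description. Ranking by Spearman's rho kept 2 of the 5.

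For Cyp1b1 the 5 features had r of 0.921 to 0.965, and 10 of 11367 exceeded 0.9. Cyp1b1 and all 5 features had their lowest value in control 2, where Cyp1b1 had 4 counts. How far r rests on that library was not tested. The closest is a 7-exon gene on chromosome 13 (51972974 to 51981976), whose group means ran only from 9.99 to 11.98 CPM, so the likeness there is one of shape and not of size. The fourth, with 30 exons on chromosome 1 (146069771 to 146226462), was at 5.81 CPM in control and 5.39 in the honokiol group against 12.8, 13.7 and 17.2 for indomethacin, aspirin and diclofenac. For Cyp1a1 none of 11368 candidates exceeded 0.9 and the highest r was 0.835, over counts of 3 to 27.

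**Figure D5:**
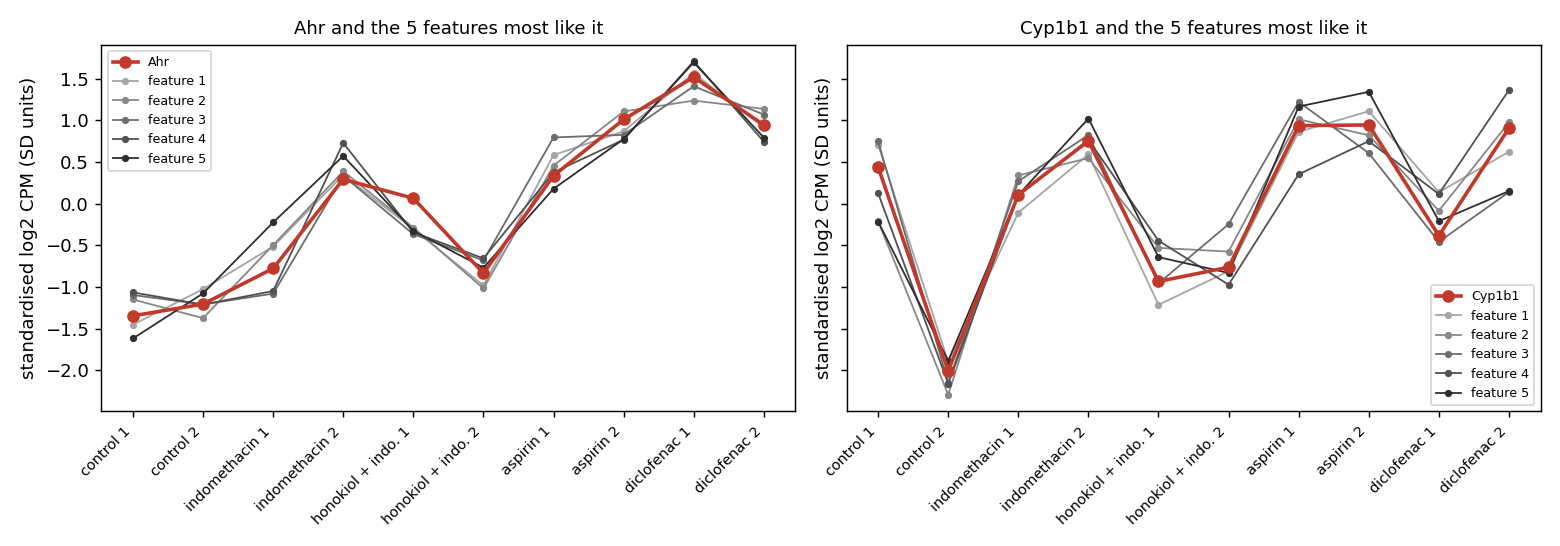
Standardised log2 CPM (vertical axes, SD units) over the 10 libraries of Ahr and of Cyp1b1 (red), each with the 5 features most like it (grey). The Ahr curves are lowest in the controls and highest in diclofenac 1, and the Cyp1b1 curves have their minimum in control 2.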

How the data were processed

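Ribosomal RNA was depleted from total RNA, and stranded libraries were sequenced as paired ends, per the labels' protocols. Per the submitters' processing notes, cutadapt 1.16, HISAT2 2.1.0, featureCounts and DESeq2 were among the tools used. The deposited values are raw counts per gene in the featureCounts layout, per the file headers. No source used here gives the genome build, the strand setting or the treatment of multi-mapping reads.

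The quasi-likelihood test of edgeR 4.0.16 (R 4.3.3) was run with TMM factors, robust moderation, group as its sole term and the defaults of filterByExpr (count 10, total 15), on all 10 libraries (5 residual degrees of freedom). The threshold was a p of 0.05 after Benjamini-Hochberg adjustment over 16346 genes. SE is the log2 fold change over the square root of F. The 95% intervals of folds use the moderated degrees of freedom, and Poisson intervals cover counting error only. Alternatives were RLE factors, other filters, DESeq2 1.42.0, a replicate block, a Y-read term (over 1000 counts on Y features), 2-group fits, nuclear multi-exon library sizes, leaving out each library and, chosen after seeing the data, libraries without Y reads only.

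The genes to describe were set as the 3 members, the called genes of 6 pathway lists and the 5 most alike features per member. The pathway lists and 17 marker lists could not be applied, since 0 of 32623 identifiers matched a symbol in the reference table, and the symbol condition on the alike features was dropped. Members and lists were chosen with earlier results of these data known. The fits were tested on simulated data with the same spread for all genes, and with changes only in genes of higher counts. That setting did not cover the low counts of Cyp1a1, the spread of Cyp1b1 or a difference as small as that of Ahr with diclofenac. Replicates differed by more than sampling noise (chi-square per degree of freedom 37.8 to 405).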

Additional observations from a re-analysis of the deposited data

How the results depend on the processing

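Of 271 values of the 3 genes under the alternatives to the 15 tests of the first 5 comparisons, 241 kept direction and side of the threshold, 12 lost the call (all of Ahr with diclofenac), 4 gained one (all of Cyp1b1) and 14 changed sign (9 of Cyp1a1, 3 of Ahr, 2 of Cyp1b1). The cause was not tested.

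Beside the values in the report, Cyp1b1 passed without the low-count filter for diclofenac (0.99, adjusted p = 0.044) and aspirin (1.73, adjusted p = 2.7e-05). With the Y-read term the log2 value of Cyp1a1 was 0.34 for diclofenac against control and -0.51 for honokiol plus indomethacin against indomethacin, that of Ahr was 0.049 in the latter and 0.61 with diclofenac, and that of Cyp1b1 was -0.24 between indomethacin and diclofenac. Without Y-read libraries Cyp1a1 was 0.51 and Ahr 0.70 with diclofenac. DESeq2 gave -0.0022 for Cyp1b1 between indomethacin and diclofenac. Ahr with diclofenac was 0.69 with the replicate block and 0.73 in the 2-group fit. Cyp1b1 was -2.20 without the filter and -2.16 in the 2-group fit for honokiol plus indomethacin against indomethacin.

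Leaving out single libraries moved the log2 values as follows. Against control with indomethacin, Cyp1a1 ran from -2.30 to 0.40 and Cyp1b1 from 0.091 to 4.35. Ahr ran from 0.14 to 0.46 there. With diclofenac Cyp1a1 ran from -2.50 to 0.51, Cyp1b1 from -0.41 to 4.34 and Ahr from 0.64 to 0.77. With aspirin Cyp1a1 ran from -0.86 to 1.74, Cyp1b1 from 0.83 to 5.09 and Ahr from 0.44 to 0.63. With honokiol plus indomethacin Cyp1a1 ran from -1.65 to 0.63, Cyp1b1 from -2.09 to 2.17 and Ahr from 0.12 to 0.38, and against indomethacin Cyp1a1 ran from -0.42 to 1.37, Cyp1b1 from -2.61 to -1.57 and Ahr from -0.20 to 0.11. Between indomethacin and diclofenac Cyp1a1 ran from -1.25 to 1.33 and Cyp1b1 from -0.68 to 1.40.

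Counts of called genes moved more. Indomethacin against control gave 127, and 834 without the filter, 262 in the 2-group fit, 39 without Y-read libraries, 376 by DESeq2 and 1 to 200 with a library left out. Diclofenac gave 1286, and 2650 without the filter, 383 with the Y-read term, 527 in the 2-group fit, 150 without Y-read libraries and 319 to 1434 with a library left out. Aspirin gave 2903, and 683, 1759 and 184 with the Y-read term, 2-group fit and without Y-read libraries, and 462 to 3606 with a library left out. Honokiol plus indomethacin against indomethacin gave 56, and 699 without the filter, 35 with the Y-read term, 250 in the 2-group fit, 235 by DESeq2 and 0 to 118 with a library left out. Against control it gave 0, and 153, 3 and 14 without the filter, in the 2-group fit and by DESeq2, and 0 to 1 with a library left out.

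The replicate number did not pair the libraries across all groups: deviations of same-numbered libraries correlated at over 0.1 in 4 of 10 pairs of groups, from -0.26 to 0.30. The values were positive among control, indomethacin and honokiol plus indomethacin (0.13, 0.30 and 0.14) and between aspirin and diclofenac (0.22). All other pairs were negative. What lies behind these 2 blocks of groups was not tested. The block ended the call of Ahr with diclofenac (edgeR adjusted p = 0.077), which was the only call among the 15 tests. Cyp1a1 gave no value at 1 CPM in 2 libraries, since no library reached it, and in some 2-group fits. Cyp1a1 had 3 to 27 counts per library, and what low depth and the spread between libraries each add to its error was not tested.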
